A study of Mus musculus with 2 samples.

Results

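Expression of 38 imprinted genes was followed over 72 h of culture in sorted germ cells of mouse foetal testes and ovaries. The genes were fixed as a list of symbols and found among the 42422 rows of the count table by Ensembl identifier. The matching gave 37 through the annotation and 1 (Zrsr1) through an identifier paired with its symbol in the study's own gene lists. In most tissues 18 of them are expressed mainly from the maternal and 20 from the paternal allele, and they fall into 17 imprinted domains. For some, including Ppp1r9a, Asb4, Ube3a, Gnas, Cd81, Tssc4 and Commd1, this bias is known only in certain tissues. Counts were not resolved by allele and DNA methylation was not measured, so the erasure of imprints itself could not be checked, and all values are totals over both alleles.

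Gonads with their mesonephros came from wild-type E12.5 embryos of ASMU Swiss females and males that carried Oct4(Pou5fl)-eGFP, a germ cell reporter, on the 129svJT2 background. They were taken at once (0 h), or cultured until 24 h or 72 h. The media held DMSO as vehicle, BGJ398/Infigratinib (FGFRi), which blocks FGF receptors, or PD0325901/Mirdametinib (MEKi), which blocks MEK1 and MEK2, the last 2 at 500 nM. The groups were XX and XY at 0 h, XX and XY at 24 h and 72 h in DMSO, and XY in FGFRi or MEKi at 24 h and 72 h, which makes 10 groups of 4 libraries. Each library held GFP-positive germ cells sorted from a pool of gonads, and the inhibitors were given to the whole gonad, somatic cells included. The p-values measure the spread between such libraries.

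An imprinted gene is expressed mainly from the allele of 1 parent, and the memory of the parent is DNA methylation at a control region set in the egg or the sperm. Imprinted genes lie in clusters in which a non-coding RNA or an insulator often silences the neighbouring genes on the same chromosome. In germ cells the inherited methylation is removed in both sexes around the age at which these gonads were taken. New imprints are laid down in male germ cells before birth and in female germ cells in growing oocytes after birth. Many imprinted genes restrain or promote foetal and placental growth.

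Total counts ran from 1178953 to 5199153 per library. Levels are CPM (the count of a gene, scaled to a common TMM-adjusted library size), given as mean ± SD with n = 4 libraries, and differences are log2 fold changes ± SE from limma, which tested each against a fold change of 1.5. Genes with FDR under 0.05 over the 15252 genes tested were called DEGs. The libraries came from 2 pools, with 20 in each. In pool 1 were the 0 h groups, the 24 h DMSO groups and XY 24 h MEKi, and in pool 2 XY 24 h FGFRi and the 72 h groups. In DMSO, time and pool therefore cannot be told apart between 72 h and earlier times, nor drug and pool for FGFRi at 24 h. XY FGFRi libraries of 24 h and 72 h were both in pool 2, and their time difference is given beside that of XY in DMSO. The 10 germ cell markers, Pou5f1 and Dazl among them, summed to 2155.7 to 6239.3 CPM per library. The 22 gonadal somatic markers summed to 48.7 to 397.4 CPM, with Insl3 at 0 in every group, and the 12 blood markers to 20.7 to 549.1 CPM. XY 0 h replicate 5 was the highest XY 0 h library for both sums, at 397.4 CPM of somatic and 393.9 CPM of blood markers. The 4 Y-linked genes summed to 128.3 to 228.9 CPM in XY and 0.836 to 19.3 CPM in XX libraries, with the highest XX value in XX 24 h DMSO replicate 6. In bulk counts, fewer cells of a type and less RNA per cell cannot be told apart.

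The starts of genes that carried the main results are shown first, because imprints sit in CpG-rich sequence and because Peg3 and Usp29 share 1 start region. Whether an imprint lies within any of these windows was not examined. Bases are GRCm39, 5′ to 3′, with every CG dinucleotide in capitals. Peg3 and Usp29 start 108 bases apart on opposite strands of chromosome 7, and the 300 bases centred between their starts are given on the plus strand (chr7:6733373-6733672 with 13 CG). For Meg3 (chr12:109506629-109506928, plus strand, 13 CG), Snrpn (chr7:59654888-59655187, minus strand, 10 CG) and Phlda2 (chr7:143056229-143056528, minus strand, 24 CG) the window ran from 250 bases before to 50 bases after the start of the canonical transcript, on the strand of the gene.
Peg3-Usp29: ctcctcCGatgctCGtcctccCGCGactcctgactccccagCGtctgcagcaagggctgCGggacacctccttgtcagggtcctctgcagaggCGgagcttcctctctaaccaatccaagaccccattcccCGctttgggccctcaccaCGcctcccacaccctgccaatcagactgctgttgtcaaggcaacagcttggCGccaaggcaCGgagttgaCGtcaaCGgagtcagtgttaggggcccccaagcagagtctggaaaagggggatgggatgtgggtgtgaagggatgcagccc
Meg3: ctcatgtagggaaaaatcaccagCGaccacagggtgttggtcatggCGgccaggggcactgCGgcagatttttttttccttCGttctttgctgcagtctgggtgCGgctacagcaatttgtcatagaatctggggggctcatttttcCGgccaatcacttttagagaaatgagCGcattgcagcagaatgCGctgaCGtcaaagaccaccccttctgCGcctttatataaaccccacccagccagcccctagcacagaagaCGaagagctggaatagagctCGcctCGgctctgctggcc
Snrpn: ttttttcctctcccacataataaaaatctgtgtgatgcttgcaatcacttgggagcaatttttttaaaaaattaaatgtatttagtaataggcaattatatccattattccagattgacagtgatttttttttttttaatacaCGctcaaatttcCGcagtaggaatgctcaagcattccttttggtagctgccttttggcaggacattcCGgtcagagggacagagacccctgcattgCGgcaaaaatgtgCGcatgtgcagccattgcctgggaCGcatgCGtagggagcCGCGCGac
Phlda2: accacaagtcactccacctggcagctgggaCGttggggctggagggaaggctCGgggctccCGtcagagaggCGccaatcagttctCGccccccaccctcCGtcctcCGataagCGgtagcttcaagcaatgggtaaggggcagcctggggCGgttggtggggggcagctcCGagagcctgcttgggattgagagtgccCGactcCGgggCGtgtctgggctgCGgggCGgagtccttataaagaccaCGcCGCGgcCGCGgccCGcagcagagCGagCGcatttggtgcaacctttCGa

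The same 300-base window was read for the 37 annotated members and for all 54639 starts of coding and long non-coding genes. Members had a median of 13 CG per window and all starts a median of 5. At least 15 CG were present in 18 members (48.6%) and in 23.9% of all starts. The windows of Peg10 (chr6:4747156-4747455) and Sgce (chr6:4747158-4747457) are nearly the same stretch. It was counted once for each gene, here and for the motif below. Those of Peg3 and Usp29 overlap in part. Grb10, a growth-restraining adaptor of insulin signalling, had 45 CG, and Rian, Mirg, Ndn and Ppp1r9a had 0. The letters TGCCGC, the core of the motif read by the imprint-protecting factor ZFP57, were searched on both strands. They occurred at 12 of 37 members (32.4%), including Meg3, Snrpn, Mest, Plagl1 and Grb10, and at 8.79% of all starts. The letters themselves hold a CG, so windows richer in CG can give more matches. The starts were not matched for CG content or gene type. Peg3, Usp29 and Phlda2 had none in this window. A match describes the letters and was not read as a binding site. Reads were primed at the poly(A) tail, so the counts do not show which start was used.

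**Figure D1:**
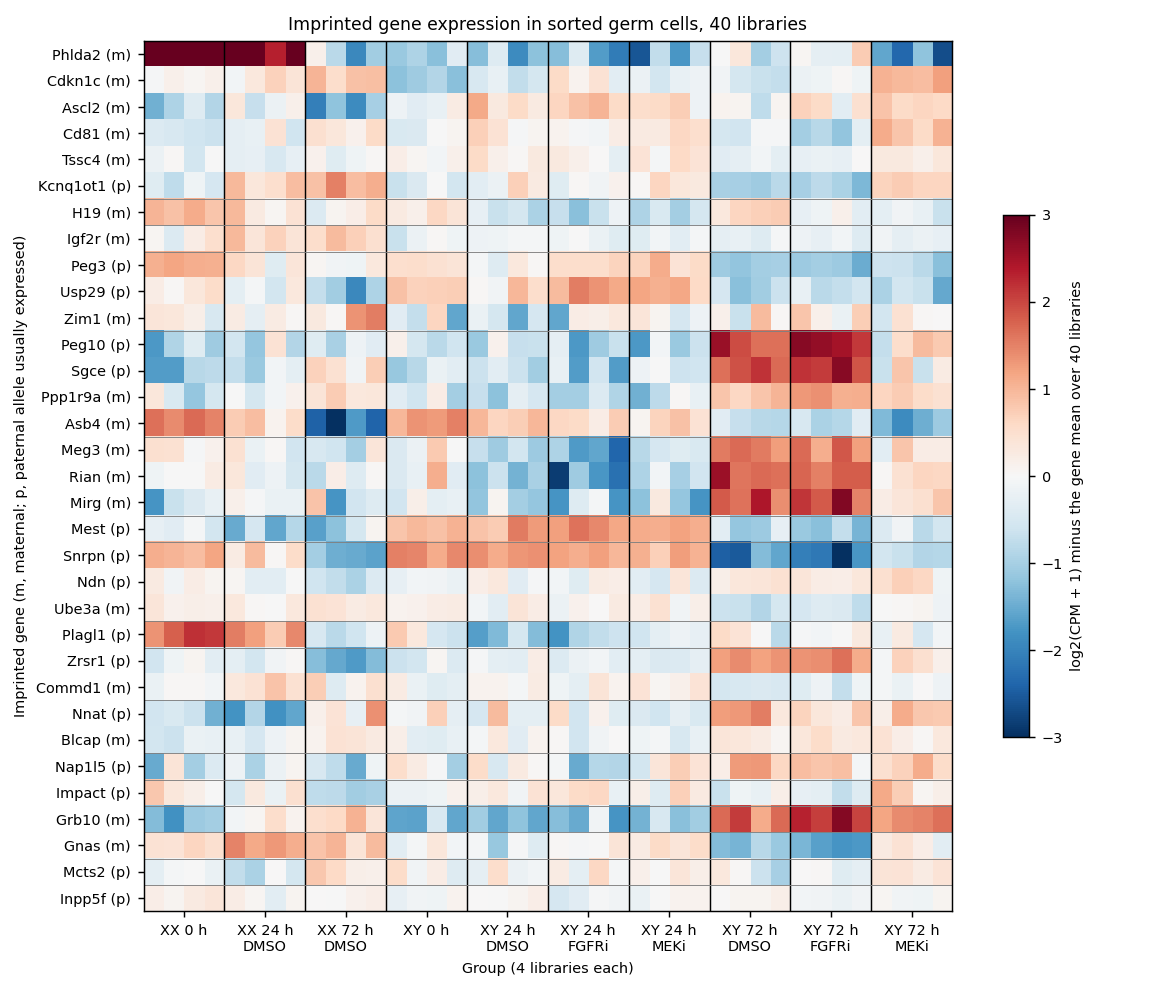
Each cell shows log2(CPM + 1) of 1 imprinted gene (rows, grouped by domain) in 1 of 40 libraries (columns, 4 per group), minus the mean of the gene over all libraries. Phlda2 stands out in XX at 0 h and 24 h, and Peg10, Sgce, Meg3, Rian, Mirg and Grb10 in XY at 72 h in DMSO or FGFRi.

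After the filter on low counts, 33 of the 38 genes were tested, all 18 maternally and 15 of the 20 paternally expressed ones. The 5 that did not pass, Igf2, Airn, Dlk1, Rtl1 and Magel2, are all paternally expressed and were near 0 in every group. Igf2, a foetal growth factor, had 0 counts in 6 of the 10 groups and at most 0.263 CPM, the mean in XX 0 h. Where a group had 0 counts, 3 counts over its libraries would have been 0.305 to 0.498 CPM for Igf2, a limit that covers counting error only. Dlk1, a membrane ligand of foetal tissues, reached 0.606 ± 0.562 CPM in XY 72 h DMSO, with 5 counts over its libraries, and Rtl1, a retrotransposon-derived gene, had 0 to 2 counts per group. Airn, the non-coding RNA antisense to Igf2r, was highest at 1.14 ± 0.634 CPM in XY 0 h, from 11 counts. Magel2, a MAGE family gene, had at most 2 counts per group. Over 17 comparisons the tested genes were called 126 times. Members of the same domain lie close together, so the shares of members called below do not count independent genes. Tssc4, Igf2r, Zim1, Commd1, Blcap, Mcts2 and Inpp5f were called in none of them.

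At 0 h, before culture, XY and XX germ cells differed in Phlda2, Cdkn1c, Plagl1 and Mest. Phlda2, a restrainer of placental growth, was at 352, 256, 241 and 278 CPM in the 4 XX libraries and at 3.07, 3.63, 2.67 and 5.88 CPM in the 4 XY libraries. Every XX value was far above every XY value (3.81 ± 1.43 v 282 ± 49.5 CPM, log2 fold change -6.07 ± 0.385, FDR = 1.06e-16). Plagl1, a zinc finger factor, was at 15.4, 21.2, 28.3 and 26.8 CPM in XX and 10.1, 7, 3.56 and 3.13 CPM in XY, with no overlap between the sexes (-2.07 ± 0.274, FDR = 9.06e-05). Cdkn1c, which encodes the cell cycle inhibitor p57, was lower in XY (48.9 ± 6.03 v 112 ± 6.81 CPM, -1.24 ± 0.147, FDR = 0.00179). Mest, a hydrolase-like gene, was higher in XY, at 56.2, 61.7, 57.9 and 65.1 CPM against 25.9, 24.3, 29.9 and 20.9 CPM in XX (1.3 ± 0.189, FDR = 0.0106). These 4 called genes were 12.1% of the members tested, beside 3.0% of all genes. The median log2 fold change was -0.116 over the members tested and 0.0281 over all genes. Somatic markers summed to 166.8 to 397.4 CPM in XY and 61.6 to 119.6 CPM in XX at 0 h, and blood markers to 57.2 to 393.9 CPM in XY and 35.7 to 54.7 CPM in XX. Their part in these differences was not tested. Mest was not called without XX 0 h replicate 5 (FDR = 0.146) or XY 0 h replicate 3 (FDR = 0.0506), and all 4 genes were called without XY 0 h replicate 5. Mest (FDR = 0.135) was not called in XY against XX at 0 h with DESeq2. Mest (FDR = 0.186) was not called without the filter on low counts.

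After 24 h in DMSO, 6 members differed by sex (18.2%, beside 9.99% of all genes). Phlda2 was at 78.7, 71.8, 43.1 and 94.6 CPM in XX and 2.59, 5.73, 1.38 and 2.71 CPM in XY (-4.74 ± 0.458, FDR = 3.44e-10). Mest was higher in XY (70 ± 18.2 v 14.7 ± 5.67 CPM, 2.27 ± 0.247, FDR = 4.35e-07), and Plagl1 was lower (1.92 ± 1.05 v 14.6 ± 3.42 CPM, -3.01 ± 0.431, FDR = 1.78e-05). Gnas, which encodes the stimulatory G protein alpha subunit, was at 223, 175, 194 and 169 CPM in XX and 75.2, 35.4, 76.3 and 60.3 CPM in XY (-1.59 ± 0.154, FDR = 1.07e-06). Grb10 (7.51 ± 1.54 v 23 ± 4.67 CPM, -1.59 ± 0.324, FDR = 0.0194) and the growth-restraining non-coding RNA H19 (42.7 ± 8.95 v 89.5 ± 26.3 CPM, -1.16 ± 0.186, FDR = 0.0193) were also lower in XY. Cdkn1c kept its direction but was not called (-0.821 ± 0.145, FDR = 0.313). Grb10 lost its call without XY 24 h DMSO replicate 4 (FDR = 0.0526) or 5 (FDR = 0.19), as did H19 without either of these (FDR = 0.0615 and FDR = 0.426) or without XX 24 h DMSO replicate 4 (FDR = 0.171). H19 (FDR = 0.0724) was not called in XY against XX at 24 h with DESeq2. H19 (FDR = 0.206) and Grb10 (FDR = 0.148) were not called without the filter on low counts. At 24 h somatic markers summed to 76.8 to 161.2 CPM in XY and 48.7 to 66.4 CPM in XX, and blood markers to 43 to 147.9 CPM in XY and 28.3 to 52 CPM in XX. Their part in these differences was not tested.

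**Figure D2:**
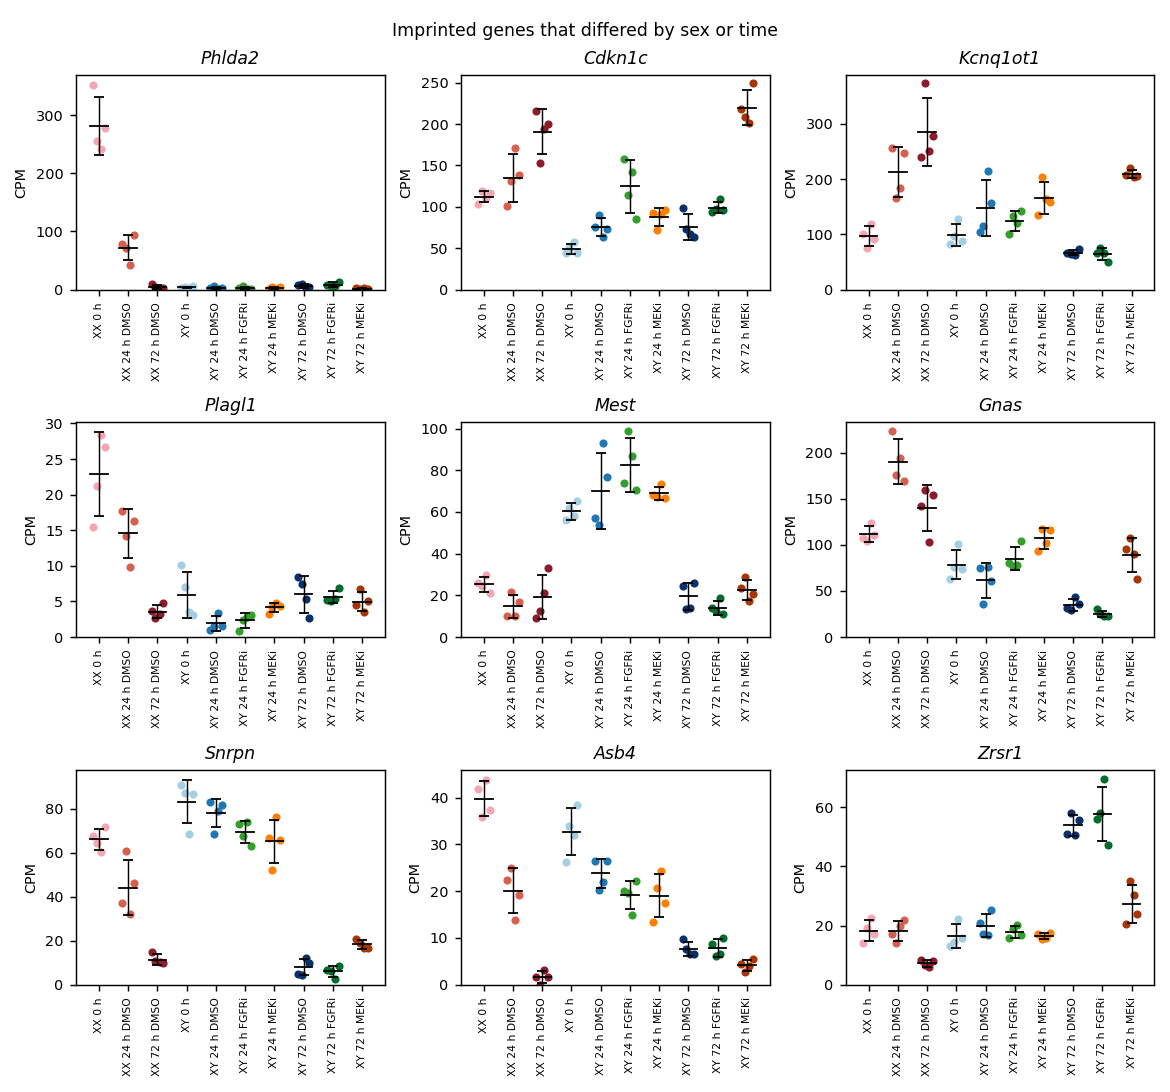
CPM of 9 imprinted genes in each library, by group. Points are libraries (n = 4 per group), bars the mean and whiskers the SD, and each panel has its own axis from 0. Phlda2 in XX falls from a mean of 282 CPM at 0 h to 4.32 CPM at 72 h, while every XY group stays under 9 CPM on average.

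In XX germ cells, 2 members were called between 0 h and 24 h (6.06%, beside 3.23% of all genes). Phlda2 fell (72.1 ± 21.5 v 282 ± 49.5 CPM, -1.86 ± 0.145, FDR = 4.07e-09) and Kcnq1ot1, the paternal non-coding RNA that silences the Kcnq1 domain, rose from 101, 76.1, 119.5 and 91.1 to 256, 165, 185 and 248 CPM (1.14 ± 0.152, FDR = 0.0156). The rise of Kcnq1ot1 lost its call without XX 0 h replicate 3 (FDR = 0.09) or 5 (FDR = 0.0686), or XX 24 h DMSO replicate 4 (FDR = 0.112) or 9 (FDR = 0.118). Summed somatic markers were 61.6 to 119.6 CPM in XX 0 h and 48.7 to 66.4 CPM in XX 24 h DMSO, with 0 of 16 tested called, and blood markers 35.7 to 54.7 and 28.3 to 52 CPM, with 0 of 8. Kcnq1ot1 (FDR = 0.0732) was not called in XX at 24 h against 0 h with DESeq2. Kcnq1ot1 (FDR = 0.0932) was not called without the filter on low counts. By 72 h Phlda2 was at 8.78, 4.01, 1.29 and 3.21 CPM in XX, which overlapped the XY libraries of the same time (3.33 to 10 CPM). Its change from 0 h was -6.2 ± 0.475 (FDR = 3.30e-15).

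From 24 h to 72 h in XX, 1 member rose and 5 fell (18.2% called, below the 22.2% of all genes). Asb4, a subunit of ubiquitin ligases, was at 22.4, 25.1, 13.9 and 19.2 CPM at 24 h and 1.55, 0, 3.23 and 1.61 CPM at 72 h (-3.57 ± 0.474, FDR = 7.29e-07). Snrpn, a spliceosomal protein gene, fell from 44.2 ± 12.6 to 11.4 ± 2.41 CPM (-1.96 ± 0.256, FDR = 1.34e-05), and Plagl1 from 14.6 ± 3.42 to 3.59 ± 0.907 CPM (-1.95 ± 0.386, FDR = 0.00299). Phlda2 (-4.34 ± 0.483, FDR = 5.82e-09) and the helix-loop-helix factor Ascl2 (-1.8 ± 0.487, FDR = 0.0365) also fell. Nnat, a membrane proteolipid gene, rose (12 ± 6.87 v 2.21 ± 1.07 CPM, 2.25 ± 0.5, FDR = 0.00516). Somatic markers summed to 159 to 285.3 CPM in XX 72 h and 48.7 to 66.4 CPM in XX 24 h DMSO, with 8 of 16 tested called, each higher at 72 h (median 1.74). Nnat was highest in XX 72 h DMSO replicate 11, at 21.9 CPM, which also had the highest somatic sum of that group, and the part of somatic RNA in its rise was not tested. Nnat was not called without that library (FDR = 0.0511), and Ascl2 was not called with 4 of the 8 libraries left out in turn (without XX 24 h DMSO replicate 4 or 9 or XX 72 h DMSO replicate 4 or 8, FDR = 0.082 to 0.138). Ascl2 (FDR = 0.0579) was not called in XX at 72 h against 24 h with relative log expression scaling. Ascl2 (FDR = 0.0646) was not called with DESeq2.

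Against 0 h, 6 members were higher and 7 lower in XX at 72 h (39.4%, close to the 37.2% of all genes). Kcnq1ot1 (285 ± 60.9 v 97 ± 18.2 CPM, 1.49 ± 0.148, FDR = 4.72e-07) and Grb10 (32.5 ± 7.16 v 7.78 ± 1.98 CPM, 2 ± 0.293, FDR = 3.44e-05) rose. Peg3, a zinc finger gene, and Usp29, a ubiquitin-specific peptidase gene, which share the start region printed above, fell together (-1.05 ± 0.124, FDR = 7.86e-04 and -1.6 ± 0.319, FDR = 0.00448). Sgce, which encodes epsilon-sarcoglycan, rose from a low level (3.42 ± 1.07 v 0.403 ± 0.466 CPM, 2.61 ± 0.645, FDR = 0.0049), while its neighbour Peg10 was not called (0.977 ± 0.673, FDR = 0.524). Asb4 (-4.5 ± 0.461, FDR = 1.49e-10), Snrpn (-2.52 ± 0.245, FDR = 1.12e-09), Plagl1 (-2.64 ± 0.366, FDR = 2.47e-06) and Zrsr1, a splicing factor-like gene (-1.34 ± 0.288, FDR = 0.018), fell. Somatic markers summed to 159 to 285.3 CPM at 72 h and 61.6 to 119.6 CPM at 0 h, with 4 of 16 tested called, each higher at 72 h (median log2 fold change 1.14), and their part in the rises was not tested. The rises of Cd81, a tetraspanin (0.959 ± 0.174, FDR = 0.0491), and Ppp1r9a, the actin-binding neurabin (1.07 ± 0.225, FDR = 0.049), each lost their call on leaving out any of 7 of the 8 libraries (Cd81 all but XX 72 h DMSO replicate 8, FDR = 0.0526 to 0.191, Ppp1r9a all but XX 0 h replicate 2, FDR = 0.0548 to 0.366). Nnat was lost without XX 0 h replicate 5 (FDR = 0.244) or XX 72 h DMSO replicate 11 (FDR = 0.267), and without XX 72 h DMSO replicate 8 so were Usp29 (FDR = 0.0653) and Zrsr1 (FDR = 0.0785), the last also without XX 0 h replicate 4 (FDR = 0.0506). Ppp1r9a (FDR = 0.0562) was not called in XX at 72 h against 0 h with edgeR. Cd81 (FDR = 0.0568) and Ppp1r9a (FDR = 0.214) were not called with DESeq2. Cd81 (FDR = 0.179), Ppp1r9a (FDR = 0.0826) and Nnat (FDR = 0.136) were not called without the filter on low counts. Cd81 (FDR = 0.0687) and Ppp1r9a (FDR = 0.0805) were not called without sample weights.

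In XY germ cells no member was called between 0 h and 24 h by limma treat, where 2.94% of all genes were. At an unadjusted p under 0.05, H19 (-1 ± 0.182, FDR = 0.242) and Plagl1 (-1.63 ± 0.466, FDR = 0.263) passed, and both were lower at 24 h. edgeR called 1 member (Plagl1, FDR = 0.0381), DESeq2 0, and an observed fold over 1.5 with limma eBayes 6. Over the same interval somatic markers summed to 166.8 to 397.4 CPM in XY 0 h and 76.8 to 161.2 CPM in XY 24 h DMSO, with 1 of 16 tested called lower, and their part in these values was not tested.

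From 24 h to 72 h in XY, 17 members were called, 11 higher and 6 lower (51.5%, beside 27.3% of all genes). The median log2 fold change was 0.0507 over the members tested and 0.0215 over all genes. The 3 long non-coding RNAs of the maternal chromosome at Dlk1-Dio3, which host small RNAs, rose together. Meg3 was at 12.4, 9.38, 13.8 and 9.2 CPM at 24 h and 62.7, 69.4, 62.6 and 50.4 CPM at 72 h (log2 fold change 2.52 ± 0.27, FDR = 3.19e-08). Rian was at 2.07, 3.65, 1.72 and 2.71 and then 42.1, 20.9, 22.6 and 21.9 CPM (3.37 ± 0.387, FDR = 3.03e-08), and Mirg at 0.518, 2.6, 0.688 and 0.541 and then 11.2, 9.61, 17.3 and 7.96 CPM (3.66 ± 0.588, FDR = 1.66e-05). For each of the 3, all 72 h libraries were above all 24 h libraries. Dlk1 and Rtl1, the protein genes of the paternal chromosome in the same domain, stayed at or under 0.606 CPM on average at 72 h.

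On chromosome 6, Peg10, a retrotransposon-derived gene needed by the placenta, rose from 0.518, 2.6, 1.03 and 1.08 to 18.8, 11.7, 9.32 and 9.29 CPM (3.37 ± 0.516, FDR = 9.68e-06). Sgce, its neighbour, rose from 1.04, 1.56, 1.03 and 0.541 to 8.95, 10.9, 13.3 and 9.29 CPM (3.4 ± 0.529, FDR = 1.23e-05), and neither gene had overlapping times. Ppp1r9a, further along the same cluster, rose less (46.6 ± 5.29 v 16.2 ± 4.45 CPM, 1.44 ± 0.221, FDR = 9.25e-04), whereas Asb4 at its far end fell (7.67 ± 1.51 v 23.8 ± 3.15 CPM, -1.63 ± 0.265, FDR = 8.19e-04). Grb10 was at 9.33, 6.25, 8.25 and 6.22 CPM at 24 h and 68, 90.3, 45.3 and 67.7 CPM at 72 h (3.2 ± 0.294, FDR = 1.37e-10). Zrsr1 (53.9 ± 3.66 v 20 ± 3.87 CPM, 1.33 ± 0.163, FDR = 1.34e-04) and H19 (98.5 ± 13.2 v 42.7 ± 8.95 CPM, 1.27 ± 0.18, FDR = 0.0011) also rose.

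Among the genes that fell, Snrpn moved the most, from 83, 68.8, 79.1 and 82 CPM to 4.92, 4.6, 12 and 9.95 CPM (-3.53 ± 0.267, FDR = 1.69e-13). Mest fell from 70 ± 18.2 to 19.5 ± 6.7 CPM (-1.91 ± 0.227, FDR = 2.41e-06). Peg3 (-1.07 ± 0.141, FDR = 0.0029) and Usp29 (-1.35 ± 0.268, FDR = 0.0138) fell, and so did Kcnq1ot1 (66.8 ± 4.96 v 148 ± 50.2 CPM, -1.11 ± 0.171, FDR = 0.00828). The summed somatic markers were 181 to 317.5 CPM in XY 72 h DMSO and 76.8 to 161.2 CPM in XY 24 h DMSO, with 6 of 16 tested called, each higher at 72 h (median log2 fold change 0.904). Of 8 blood markers tested, 2 were called higher (median -0.607), with sums of 54.2 to 100.9 and 43 to 147.9 CPM. In XY 0 h the somatic sum was 166.8 to 397.4 CPM, with Meg3 at 14.9 to 36.5, Peg10 at 0.891 to 2.63 and Grb10 at 5.97 to 14.3 CPM. In XY 72 h FGFRi it was 103.2 to 153.3 CPM, with Meg3 at 44.9 to 77.7, Peg10 at 13.4 to 21 and Grb10 at 85.4 to 142 CPM. Between XY 0 h and XY 72 h FGFRi, these 3 genes and the sum differed in opposite directions. Between XY 24 h and 72 h in DMSO, the genes and the sum were all higher at 72 h. H19 was at 82.7 ± 11.4 CPM in XY 0 h, 42.7 ± 8.95 in 24 h DMSO, 98.5 ± 13.2 in 72 h DMSO and 58.5 ± 8.73 in 72 h FGFRi. The mean somatic sums of these XY groups were 230, 108.5, 252 and 128.7 CPM. In XY 72 h MEKi, H19 was at 39.96 to 59.8 CPM beside a mean sum of 179.6 CPM. In XX it was at 114.8 to 139.2 CPM at 0 h and 47.49 to 95.82 CPM at 72 h, beside mean sums of 99.5 and 220 CPM. From 0 h to 72 h in XY, H19 was not called (0.272 ± 0.157, FDR = 1). The part of somatic and blood RNA in the change of H19 and the other members was not tested. Plagl1 (1.72 ± 0.476, FDR = 0.0387) and Nnat (1.45 ± 0.307, FDR = 0.0149) were called higher with overlapping groups. Plagl1 lost its call without XY 24 h DMSO replicate 2, 3 or 5 or XY 72 h DMSO replicate 2 or 4, FDR = 0.0659 to 0.139. Without XY 24 h DMSO replicate 5, H19 (FDR = 0.0892), Usp29 (FDR = 0.107), Kcnq1ot1 (FDR = 0.145) and Nnat (FDR = 0.0858) were lost as well. The last 3 of these were also lost without XY 24 h DMSO replicate 4 (FDR = 0.0968, FDR = 0.119 and FDR = 0.0598), and Usp29 without XY 72 h DMSO replicate 4 (FDR = 0.0934). Kcnq1ot1 (FDR = 0.0566), Peg3 (FDR = 0.0697) and Nnat (FDR = 0.109) were not called in XY at 72 h against 24 h with DESeq2. Kcnq1ot1 (FDR = 0.0994), H19 (FDR = 0.0603), Peg3 (FDR = 0.0565), Usp29 (FDR = 0.0601), Plagl1 (FDR = 0.153) and Nnat (FDR = 0.179) were not called without the filter on low counts. Plagl1 (FDR = 0.0614) was not called without sample weights.

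**Figure D3:**
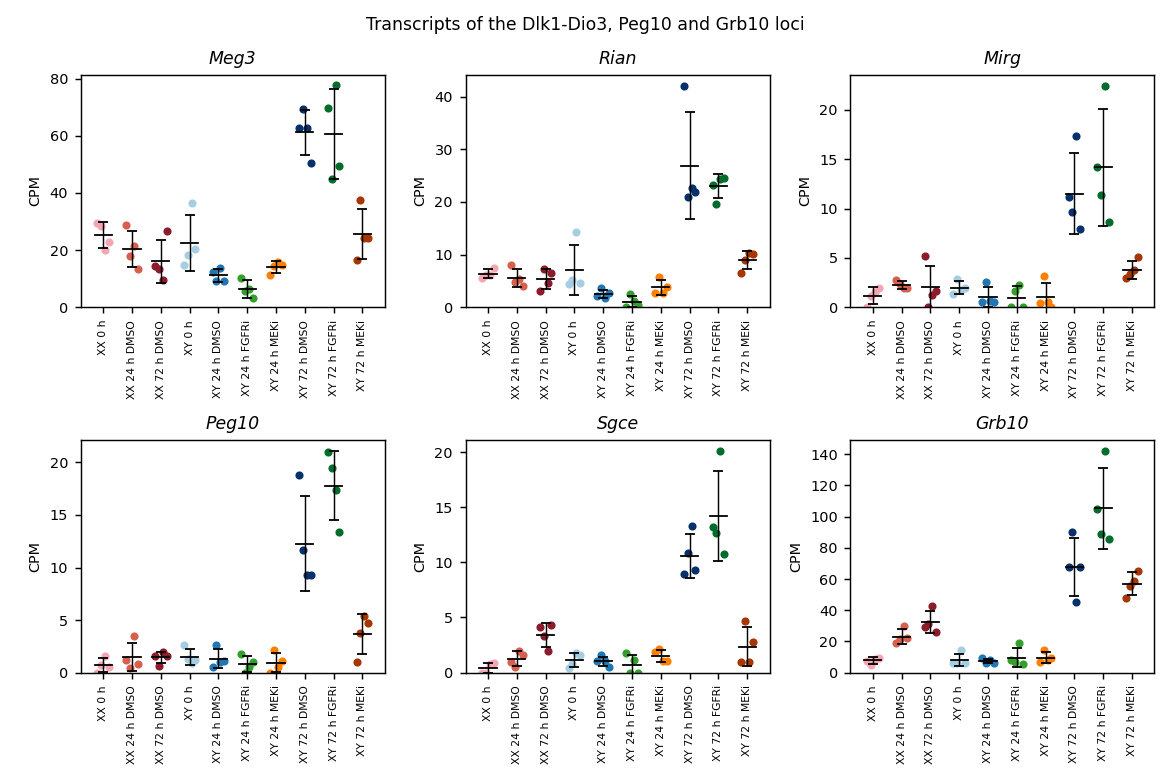
CPM of 6 imprinted genes in each library, by group. Points are libraries (n = 4 per group), bars the mean and whiskers the SD, and each panel has its own axis from 0. All XY 72 h DMSO and FGFRi libraries lie above all XX, 0 h and 24 h libraries, and for Meg3, Rian, Mirg, Peg10 and Sgce also above all XY 72 h MEKi libraries.

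The same interval was compared within pool 2, in XY germ cells held in FGFRi, a comparison added after the data were seen that shares no library with the DMSO one. It called 15 members, 9 higher and 6 lower at 72 h (beside 33.5% of all genes called). Meg3 was at 10.4, 5.7, 6.31 and 3.17 CPM at 24 h and 69.7, 44.9, 77.7 and 49.6 CPM at 72 h (3.29 ± 0.391, FDR = 4.86e-08). Peg10 was at 1.74, 0, 0.574 and 1.05 CPM at 24 h and 21, 19.4, 17.4 and 13.4 CPM at 72 h (4.29 ± 0.563, FDR = 1.58e-07). Snrpn was at 72.9, 67.6, 74 and 63.3 CPM and then 6.77, 6.31, 2.71 and 8.62 CPM (-3.5 ± 0.234, FDR = 1.60e-15). In these 3 genes no 24 h library overlapped any 72 h library. Of the 17 members called in DMSO, all 17 had the same sign here and 13 were called. Kcnq1ot1 (-0.915 ± 0.165, FDR = 0.0707), H19 (0.529 ± 0.203, FDR = 0.951), Plagl1 (1.09 ± 0.445, FDR = 0.291) and Nnat (0.638 ± 0.338, FDR = 0.76) were not. Nap1l5, a nucleosome assembly protein-like gene (2.2 ± 0.62, FDR = 0.0201), and Gnas (-1.69 ± 0.181, FDR = 6.78e-07) were called here and not in DMSO. The difference between the media in these changes was not tested. In FGFRi, somatic markers summed to 81.8 to 135.4 CPM at 24 h and 103.2 to 153.3 CPM at 72 h, and blood markers to 66.8 to 91.8 and 41.4 to 89.7 CPM. Leaving out single libraries gave 14 to 16 calls, with Asb4 lost without XY 72 h FGFRi replicate 4 and Nap1l5 without that group's replicate 2 or XY 24 h FGFRi replicate 3. edgeR called 18 members and DESeq2 14, without Nap1l5.

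Against 0 h, 16 members were called in XY at 72 h, 9 higher and 7 lower (48.5%, beside 35.5% of all genes). Snrpn (-3.61 ± 0.266, FDR = 2.56e-14), Grb10 (3.28 ± 0.284, FDR = 9.51e-12), Sgce (3.18 ± 0.492, FDR = 9.22e-06), Peg10 (2.99 ± 0.468, FDR = 1.42e-05), Mirg (2.29 ± 0.456, FDR = 0.00101), Rian (2.23 ± 0.273, FDR = 7.58e-07) and Meg3 (1.64 ± 0.212, FDR = 2.34e-05) were among them, in the directions seen from 24 h. Gnas fell (35.1 ± 6.5 v 78.5 ± 15.8 CPM, -1.15 ± 0.185, FDR = 0.00593). Ube3a, an E3 ubiquitin ligase gene, also fell (111 ± 10.8 v 199.9 ± 9.47 CPM, -0.849 ± 0.114, FDR = 0.036), but its call was lost without XY 0 h replicate 5 or 6 or XY 72 h DMSO replicate 2, 4 or 5, FDR = 0.0535 to 0.179. The rise of Nnat (1.28 ± 0.287, FDR = 0.0283) was lost without XY 0 h replicate 3 or 6 or XY 72 h DMSO replicate 2, 4 or 5, FDR = 0.0519 to 0.115. XY 0 h replicate 5 was highest of its group for Rian, Meg3, Nnat and Grb10, and without it 15 members were called. Over this interval somatic markers summed to 181 to 317.5 CPM in XY 72 h DMSO and 166.8 to 397.4 CPM in XY 0 h, with 3 of 16 tested called, each higher at 72 h. Blood markers summed to 54.2 to 100.9 CPM at 72 h and 57.2 to 393.9 CPM at 0 h, with 2 of 8 tested called higher and 2 lower (median log2 fold change -1.2). Their part in these changes was not tested. Ube3a (FDR = 0.183) was not called in XY at 72 h against 0 h with relative log expression scaling. Ube3a (FDR = 0.462) and Nnat (FDR = 0.0907) were not called with DESeq2. Ube3a (FDR = 0.128), Nnat (FDR = 0.13) and Gnas (FDR = 0.135) were not called without the filter on low counts. Ube3a (FDR = 0.0599) was not called without sample weights.

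At 72 h in DMSO, XY and XX germ cells differed in 15 members, 10 higher and 5 lower in XY (45.5%, beside 41.0% of all genes, so that the share was close to that of all genes). Zrsr1 was at 51, 58.1, 50.6 and 55.7 CPM in XY and 8.26, 6.69, 5.82 and 8.03 CPM in XX (log2 fold change 2.85 ± 0.275, FDR = 3.84e-10). Peg10 (12.3 ± 4.49 v 1.44 ± 0.543 CPM, 2.83 ± 0.512, FDR = 1.30e-04), Sgce (10.6 ± 1.99 v 3.42 ± 1.07 CPM, 1.58 ± 0.426, FDR = 0.03) and Asb4 (7.67 ± 1.51 v 1.6 ± 1.32 CPM, 2.21 ± 0.507, FDR = 0.00378) were higher in XY. So were Meg3 (61.3 ± 7.9 v 16.1 ± 7.41 CPM, 1.98 ± 0.276, FDR = 1.51e-05), Rian (2.39 ± 0.349, FDR = 1.06e-05) and Mirg (2.62 ± 0.546, FDR = 9.12e-04).

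In the other direction, Kcnq1ot1 was at 66.2, 65.2, 61.9 and 73.7 CPM in XY and 239.5, 373, 250.4 and 278 CPM in XX at 72 h (-2.02 ± 0.166, FDR = 8.73e-11), with no overlap. Cdkn1c, in the same domain, was lower in XY too (75.4 ± 15.9 v 191 ± 27 CPM, -1.35 ± 0.14, FDR = 4.75e-06), as were Gnas (35.1 ± 6.5 v 140.0 ± 25.4 CPM, -1.98 ± 0.183, FDR = 3.02e-09), Peg3 (-1.12 ± 0.142, FDR = 8.47e-04) and Ube3a (-1.03 ± 0.117, FDR = 7.98e-04). Phlda2, Plagl1 and Mest, which had differed at 0 h and 24 h, were not called (0.838 ± 0.579, FDR = 0.565, 0.664 ± 0.436, FDR = 0.678 and 0.0396 ± 0.295, FDR = 1). Somatic markers summed to 181 to 317.5 CPM in XY and 159 to 285.3 CPM in XX, which overlap, but of 16 tested 2 were called higher and 3 lower in XY. Among the markers listed, the endothelial Cdh5 had a mean of 9.72 CPM in XY and 0.268 CPM in XX, and the granulosa cell marker Foxl2 0.714 and 9.41 CPM. Of 8 blood markers tested, 2 were called higher in XY. The part of these cells in the differences was not tested. Ascl2 (1.79 ± 0.487, FDR = 0.0223), Sgce, Nap1l5, a histone chaperone-like gene (2.2 ± 0.656, FDR = 0.0226), and Grb10 (1.06 ± 0.199, FDR = 0.0284) depended on single libraries. Without XX 72 h DMSO replicate 8, Ascl2 (FDR = 0.0776), Sgce (FDR = 0.148) and Nap1l5 (FDR = 0.177) were not called, and neither were Ascl2 (FDR = 0.0851) and Grb10 (FDR = 0.0962) without XX 72 h DMSO replicate 4, Grb10 without XX 72 h DMSO replicate 11 (FDR = 0.144), Grb10 (FDR = 0.15) and Nap1l5 (FDR = 0.0533) without XY 72 h DMSO replicate 4, or Sgce without XY 72 h DMSO replicate 5 (FDR = 0.0603). Sgce (FDR = 0.0759), Nap1l5 (FDR = 0.0531) and Grb10 (FDR = 0.104) were not called in XY against XX at 72 h with DESeq2. Sgce (FDR = 0.0526) and Grb10 (FDR = 0.164) were not called without the filter on low counts.

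**Figure D4:**
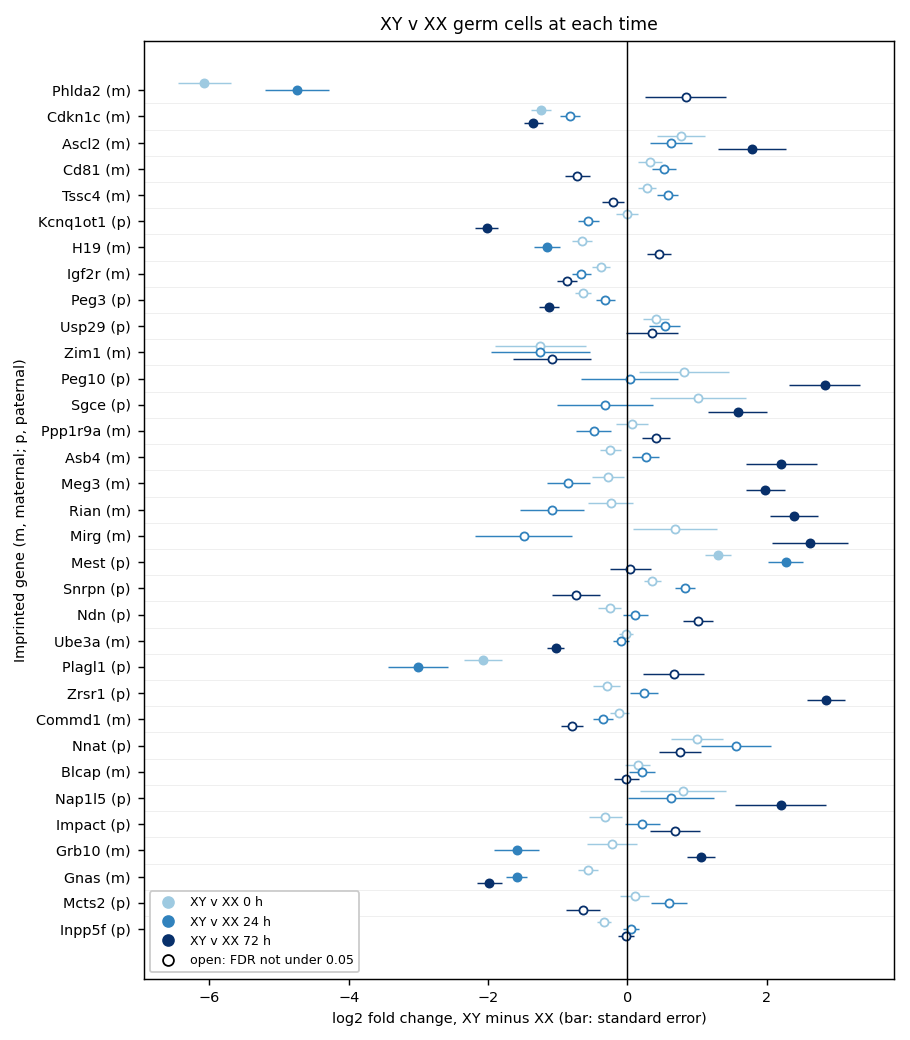
Log2 fold change of XY minus XX germ cells for the 33 imprinted genes tested, at 0 h, 24 h and 72 h (24 h and 72 h in DMSO). Points are fitted values, bars the SE, and filled points have FDR under 0.05. Phlda2 and Plagl1 lie left of 0 at 0 h and 24 h only, and the Meg3, Rian and Mirg points move to the right of 0 at 72 h.

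The change of the sex difference from 24 h to 72 h was tested as an interaction, each difference being taken within a pool. It was called for 14 members, 10 positive and 4 negative (42.4%, beside 26.1% of all genes). Phlda2 had the largest value (5.58 ± 0.738, FDR = 2.19e-07), followed by Mirg (4.1 ± 0.883, FDR = 9.19e-04), Plagl1 (3.68 ± 0.613, FDR = 4.42e-05), Rian (3.47 ± 0.58, FDR = 5.45e-05) and Meg3 (2.83 ± 0.417, FDR = 1.59e-05). Between these times Phlda2 fell in XX, Plagl1 fell in XX and rose in XY, and the non-coding RNAs rose in XY. Grb10 turned from lower to higher in XY (2.64 ± 0.38, FDR = 1.45e-05). Zrsr1 (2.61 ± 0.341, FDR = 2.98e-06) and H19 (1.62 ± 0.254, FDR = 7.07e-04) were also positive, and Mest (-2.23 ± 0.385, FDR = 4.32e-04), Snrpn (-1.57 ± 0.369, FDR = 0.023), Kcnq1ot1 (-1.46 ± 0.226, FDR = 0.00118) and Cd81 (-1.25 ± 0.25, FDR = 0.0241) negative. Peg10 (2.79 ± 0.864, FDR = 0.0293) was not called once counts from libraries with the same sample index were subtracted (log2 fold change 1.45, FDR = 0.448), and the XX 24 h DMSO libraries share their indices with XY 72 h FGFRi libraries. Peg10 was also lost without XX 24 h DMSO replicate 4 or 6 or XY 72 h DMSO replicate 2, FDR = 0.053 to 0.0665. Asb4 (1.94 ± 0.543, FDR = 0.0323) was lost without XX 72 h DMSO replicate 4, 7 or 11 or XY 72 h DMSO replicate 2, FDR = 0.0553 to 0.104. Snrpn was lost without XX 24 h DMSO replicate 4, XX 72 h DMSO replicate 4 or XY 72 h DMSO replicate 2 or 4, FDR = 0.0525 to 0.0877, and Cd81 without XX 24 h DMSO replicate 9, XX 72 h DMSO replicate 11, XY 24 h DMSO replicate 2 or XY 72 h DMSO replicate 2 or 4, FDR = 0.0618 to 0.116. Of 16 somatic markers tested, 1 was positive and 1 negative in this interaction (median -0.439), and of 8 blood markers 2 were positive (median 0.154). Their part in it was not tested. Cd81 (FDR = 0.143) was not called in this interaction with DESeq2. Peg10 (FDR = 0.0789) and Snrpn (FDR = 0.0822) were not called without the filter on low counts. Peg10 (FDR = 0.448) was not called with shared index counts subtracted.

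Inhibition for 24 h left no member called by limma treat, with either drug, where 0.262% of all genes were called with FGFRi and 0.164% with MEKi. No member passed at an unadjusted p under 0.05, and edgeR and DESeq2 called 0 in each. An observed fold over 1.5 with limma eBayes called Cdkn1c and Usp29 higher with FGFRi, and Peg3 and Gnas higher with MEKi. In XY 24 h MEKi, Peg3 was at 384, 525, 319.6 and 359 CPM, and in XY 24 h DMSO at 232, 183, 298 and 247 CPM (log2 fold change 0.68, 95% interval 0.425 to 0.935). Blood markers summed to 218.5 to 549.1 CPM in XY 24 h MEKi and 43 to 147.9 CPM in XY 24 h DMSO, with 3 of 8 tested called higher (median log2 fold change 1.72), and their part in these values was not tested. Cdkn1c was at 158, 114, 142 and 84.9 CPM in XY 24 h FGFRi and 75.7, 90.1, 63.3 and 72.8 CPM in DMSO, with 1 FGFRi library inside the DMSO range (log2 fold change 0.716, 0.424 to 1.01).

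After 72 h in FGFRi, no member was called either, beside 0.00656% of all genes. The largest value was that of H19 (54, 58.3, 70.7 and 50.9 CPM in FGFRi and 79.2, 101, 106 and 108 CPM in DMSO, log2 fold change -0.747, 95% interval -1.06 to -0.433). No member had an unadjusted p under 0.05, edgeR and DESeq2 called 0, and an observed fold over 1.5 with limma eBayes called H19 and Grb10. After FGFRi for 72 h, somatic markers summed to 103.2 to 153.3 CPM in FGFRi and 181 to 317.5 CPM in DMSO, without overlap, and their part in these values was not tested. Meg3 (60.5 ± 15.7 v 61.3 ± 7.9 CPM, interval -0.394 to 0.26), Peg10 (17.8 ± 3.3 v 12.3 ± 4.49 CPM, 0.1 to 1.05) and Snrpn (6.1 ± 2.47 v 7.86 ± 3.68 CPM, -0.822 to 0.489) show how wide the differences could still be.

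After 72 h in MEKi, 11 members were called, 5 higher and 6 lower than in DMSO (33.3%, beside 9.12% of all genes). By domain, 4 of these calls were in Kcnq1, 3 in Dlk1-Dio3, 2 in Peg10, 1 in Snrpn and 1 in Gnas. The median log2 fold change was 0.00464 over the members, called or not, and 0.00574 over all genes. The 6 that were lower included the Dlk1-Dio3 non-coding RNAs and the Peg10 and Sgce pair. Meg3 was at 16.4, 37.6, 24.4 and 24.3 CPM in MEKi against 62.7, 69.4, 62.6 and 50.4 CPM in DMSO (log2 fold change -1.23 ± 0.181, FDR = 0.00723). Rian was at 6.45, 8.95, 10.3 and 10.2 CPM (-1.5 ± 0.208, FDR = 7.49e-04) and Mirg at 2.98, 3.4, 3.77 and 5.09 CPM (-1.55 ± 0.335, FDR = 0.0356), in both cases below all DMSO libraries. Sgce was at 0.993, 4.66, 0.991 and 2.74 CPM (-2.43 ± 0.383, FDR = 2.51e-04) and Peg10 at 0.993, 3.76, 5.35 and 4.7 CPM (-1.62 ± 0.318, FDR = 0.0145), again below all DMSO libraries. The MEKi means of these 5 genes lay between their 24 h and 72 h DMSO means. Grb10, by contrast, was at 47.6, 55.7, 58.9 and 65.4 CPM in MEKi, within the range of DMSO (-0.22 ± 0.149, FDR = 1). Phlda2 was lower from an already low level (1.47 ± 1.11 v 6.4 ± 3.01 CPM, -2.14 ± 0.568, FDR = 0.0469).

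Kcnq1ot1 rose with MEKi, at 207, 220.1, 204 and 206 CPM against 66.2, 65.2, 61.9 and 73.7 CPM in DMSO (1.65 ± 0.159, FDR = 9.31e-07). Cdkn1c, a maternal gene of the same domain, rose as well, to 218, 209, 201 and 249.6 CPM from 98.5, 72.7, 66.6 and 63.7 CPM (1.49 ± 0.13, FDR = 3.86e-07), and so did Cd81 (113 ± 18.5 v 49.7 ± 10.2 CPM, 1.15 ± 0.158, FDR = 0.00725). Gnas was at 95.3, 107, 90.6 and 62.7 CPM in MEKi and 31.3, 29.3, 43.9 and 35.8 CPM in DMSO (1.37 ± 0.176, FDR = 6.60e-04). Snrpn was at 20.8, 19.2, 16.4 and 16.9 CPM in MEKi, above all DMSO libraries (1.36 ± 0.278, FDR = 0.0413), and still below its 24 h DMSO level. Somatic markers summed to 134.5 to 294.4 CPM in MEKi, 181 to 317.5 CPM in DMSO and 103.2 to 153.3 CPM in FGFRi, and in the MEKi library with the highest sum, replicate 3, Meg3 was also the highest of the group. The part of somatic RNA in these differences was not tested. Germ cell markers summed to 2699 to 4091.5 CPM in MEKi and 3346 to 3808.4 CPM in DMSO. Blood markers summed to 21.4 to 44.6 CPM in MEKi and 54.2 to 100.9 CPM in DMSO, with 1 of 8 tested called lower (median log2 fold change -1.22), and their part was not tested either. Snrpn (FDR = 0.0587) was not called for MEKi against DMSO with relative log expression scaling. Cd81 (FDR = 0.0582), Meg3 (FDR = 0.0652), Mirg (FDR = 0.136) and Snrpn (FDR = 0.0904) were not called with DESeq2. Phlda2 (FDR = 0.298), Peg10 (FDR = 0.273), Meg3 (FDR = 0.181), Rian (FDR = 0.0732), Mirg (FDR = 0.477) and Snrpn (FDR = 0.182) were not called without the filter on low counts. Mirg (FDR = 0.0697) and Snrpn (FDR = 0.0523) were not called without sample weights. Snrpn (FDR = 0.0505) was not called with only the groups compared in the fit. Without XY 72 h DMSO replicate 2, 6 members were called, and Snrpn (FDR = 0.227), Peg10 (FDR = 0.155), Phlda2 (FDR = 0.121), Mirg (FDR = 0.088) and Cd81 (FDR = 0.0577) were lost. Without XY 72 h DMSO replicate 4, Phlda2, Cd81 and Snrpn were lost (FDR = 0.176, FDR = 0.0682 and FDR = 0.257). In all, Phlda2 was lost without XY 72 h DMSO replicate 2 or 4 or XY 72 h MEKi replicate 2, 3 or 5, FDR = 0.0693 to 0.176. Mirg was lost without XY 72 h DMSO replicate 2 or 5 or XY 72 h MEKi replicate 2, 3 or 4, FDR = 0.0534 to 0.155, and Snrpn without XY 72 h DMSO replicate 2 or 4 or XY 72 h MEKi replicate 2 or 3, FDR = 0.0609 to 0.257.

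**Figure D5:**
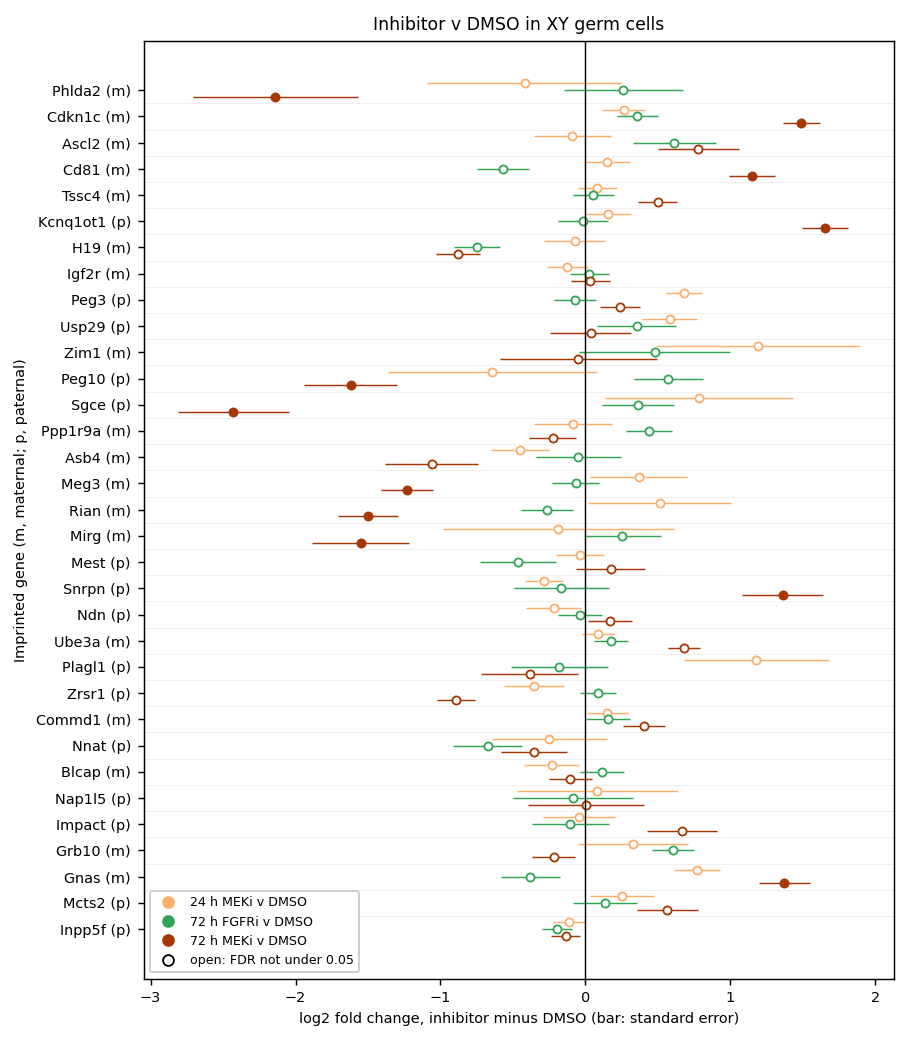
Log2 fold change of inhibitor minus DMSO in XY germ cells for the 33 imprinted genes tested, for MEKi at 24 h and for FGFRi and MEKi at 72 h. Points are fitted values, bars the SE, and filled points have FDR under 0.05. The 11 filled points are all MEKi at 72 h.

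The drugs were compared directly at 72 h, at the same dose of 500 nM. MEKi and FGFRi differed in 12 members, 5 higher and 7 lower in MEKi (36.4%, beside 12.7% of all genes). Sgce (2.35 ± 1.75 v 14.2 ± 4.08 CPM, -2.79 ± 0.352, FDR = 1.94e-06), Peg10 (3.7 ± 1.92 v 17.8 ± 3.3 CPM, -2.2 ± 0.279, FDR = 9.27e-06), Mirg (-1.8 ± 0.298, FDR = 0.00128), Rian (-1.24 ± 0.195, FDR = 0.00828) and Meg3 (-1.16 ± 0.171, FDR = 0.00788) were lower in MEKi. Zrsr1 was lower too, at 20.4, 34.9, 30.3 and 23.9 CPM against 56, 58, 69.6 and 47.4 CPM (-0.982 ± 0.123, FDR = 0.0118). Gnas (88.9 ± 18.8 v 25.1 ± 3.37 CPM, 1.75 ± 0.165, FDR = 1.47e-07), Cd81 (1.72 ± 0.153, FDR = 5.45e-08), Kcnq1ot1 (1.66 ± 0.146, FDR = 5.50e-08), Snrpn (1.53 ± 0.242, FDR = 0.00205) and Cdkn1c (1.14 ± 0.117, FDR = 2.17e-04) were higher. Phlda2 (-2.4 ± 0.506, FDR = 0.0047) was lower. Meg3 lost its call without XY 72 h FGFRi replicate 2 (FDR = 0.119) or 5 (FDR = 0.0581), and Zrsr1 without XY 72 h MEKi replicate 5 (FDR = 0.0686). Somatic markers had 1 of 16 called higher and 1 lower in MEKi, and blood markers 1 of 8 lower (sums of 21.4 to 44.6 CPM in MEKi and 41.4 to 89.7 CPM in FGFRi). Their part was not tested. Meg3 (FDR = 0.0527) was not called for MEKi against FGFRi with DESeq2. Phlda2 (FDR = 0.0664), Meg3 (FDR = 0.0706), Rian (FDR = 0.0975) and Mirg (FDR = 0.115) were not called without the filter on low counts. Phlda2 (FDR = 0.058) was not called with shared index counts subtracted. Zrsr1 (FDR = 0.0565) was not called with only the groups compared in the fit.

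Set against XX germ cells of the same time, XY germ cells in MEKi differed in 6 members, 5 higher and 1 lower (18.2%, below the 30.0% of all genes). Ascl2 (12.5 ± 1.28 v 2.05 ± 1.06 CPM, 2.57 ± 0.442, FDR = 1.52e-04), Zrsr1 (27.4 ± 6.51 v 7.2 ± 1.15 CPM, 1.96 ± 0.275, FDR = 3.33e-05), Nap1l5 (2.21 ± 0.62, FDR = 0.0221), Impact, a regulator of translation (1.35 ± 0.322, FDR = 0.0367), and Ndn, a MAGE family gene (1.18 ± 0.203, FDR = 0.01), were higher in XY. Peg3 was lower (-0.882 ± 0.132, FDR = 0.0474). Cdkn1c (219.5 ± 21.2 v 191 ± 27 CPM, 0.148 ± 0.118, FDR = 1), Kcnq1ot1 (209 ± 7.36 v 285 ± 60.9 CPM, -0.379 ± 0.136, FDR = 1) and Meg3 (25.7 ± 8.8 v 16.1 ± 7.41 CPM, 0.756 ± 0.281, FDR = 0.549) were not called here, and this contrast shares its XX libraries with the contrast of XY DMSO and its MEKi libraries with that of MEKi and DMSO. The count was 3 without XX 72 h DMSO replicate 8, when Nap1l5 (FDR = 0.206), Impact (FDR = 0.105) and Ndn (FDR = 0.0814) were lost, and 3 without XY 72 h MEKi replicate 4, when Nap1l5 (FDR = 0.0827), Ndn (FDR = 0.0683) and Peg3 (FDR = 0.0729) were. Peg3 was lost without XX 72 h DMSO replicate 4 or 11 or XY 72 h MEKi replicate 4 or 5, FDR = 0.0729 to 0.287. Impact was lost without XX 72 h DMSO replicate 4, 8 or 11 or XY 72 h MEKi replicate 2 or 3, FDR = 0.0621 to 0.105, and Ndn also without XY 72 h MEKi replicate 3 (FDR = 0.0861). In this contrast 2 of 16 somatic markers tested were called lower and 1 of 8 blood markers higher in XY, with somatic sums of 134.5 to 294.4 CPM in MEKi and 159 to 285.3 CPM in XX, and blood sums of 21.4 to 44.6 and 20.7 to 32.1 CPM. Their part in these differences was not tested. Impact (FDR = 0.0595) was not called in XY MEKi against XX with relative log expression scaling. Peg3 (FDR = 0.0838) and Nap1l5 (FDR = 0.136) were not called with DESeq2. Peg3 (FDR = 0.379) was not called without the filter on low counts. Peg3 (FDR = 0.098) was not called without sample weights. Peg3 (FDR = 0.178) was not called with shared index counts subtracted.

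The difference between MEKi and DMSO was larger or smaller at 72 h than at 24 h for 4 members, by an interaction taken within pools (12.1%, beside 1.89% of all genes). Kcnq1ot1 (1.49 ± 0.22, FDR = 0.00905), Snrpn (1.65 ± 0.309, FDR = 0.034) and Cdkn1c (1.23 ± 0.197, FDR = 0.0495) were positive and Sgce was negative (-3.22 ± 0.754, FDR = 0.0317). Rian (-2.01 ± 0.534, FDR = 0.146) and Meg3 (-1.6 ± 0.38, FDR = 0.148) did not pass. The count ran from 0 to 4 when single libraries were left out, and was 0 without XY 24 h DMSO replicate 5. Kcnq1ot1 was lost without XY 24 h DMSO replicate 4 or 5, FDR = 0.0676 to 0.103. Sgce was lost without XY 24 h DMSO replicate 4 or 5, XY 24 h MEKi replicate 1 or 2, XY 72 h DMSO replicate 5 or XY 72 h MEKi replicate 4, FDR = 0.0534 to 0.187, and Snrpn without XY 24 h DMSO replicate 4 or 5, XY 24 h MEKi replicate 2, XY 72 h DMSO replicate 2 or 4 or XY 72 h MEKi replicate 2 or 3, FDR = 0.0508 to 0.216. Cdkn1c was lost without XY 24 h DMSO replicate 2, 3 or 5, XY 24 h MEKi replicate 1, 2 or 4, XY 72 h DMSO replicate 4, 5 or 6 or XY 72 h MEKi replicate 2 or 5, FDR = 0.0584 to 0.137. Cdkn1c (FDR = 0.113) and Snrpn (FDR = 0.0555) were not called for MEKi by time with relative log expression scaling. Sgce (FDR = 0.0759) was not called with edgeR. Cdkn1c (FDR = 0.163), Kcnq1ot1 (FDR = 0.0834), Sgce (FDR = 0.245) and Snrpn (FDR = 0.0953) were not called with DESeq2. Kcnq1ot1 (FDR = 0.0534), Sgce (FDR = 0.169) and Snrpn (FDR = 0.0856) were not called without the filter on low counts. Cdkn1c (FDR = 0.0562), Sgce (FDR = 0.0792) and Snrpn (FDR = 0.0546) were not called without sample weights. Cdkn1c (FDR = 0.239) was not called with shared index counts subtracted. Sgce (FDR = 0.059) was not called with only the groups compared in the fit. Of 16 somatic markers tested, 1 was called in this interaction, negative, and of 8 blood markers 3, each negative (median -2.94), and their part in it was not tested.

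Genes that write and remove DNA methylation were listed apart. Of 9 tested genes of de novo methylation and imprint establishment, 4 were called in XY from 24 h to 72 h, and all 4 rose (median log2 fold change 0.536, beside 0.0215 over all genes, of which 27.3% were called). Dnmt3l, the cofactor of the de novo methyltransferases, rose from near 0 (138 ± 29 CPM v 1.51 ± 1.54 CPM, log2 fold change 6.98 ± 0.648, FDR = 6.30e-12), and Dnmt3a, a de novo methyltransferase, rose as well (536 ± 26.8 CPM v 139 ± 23.1 CPM, log2 fold change 1.98 ± 0.0988, FDR = 3.23e-17). With 72 h of MEKi, 4 of the 9 were called, each lower than in DMSO (median -0.484, beside 0.00574 over all genes, of which 9.12% were called), namely Dnmt3l (13.4 ± 6.09 CPM v 138 ± 29 CPM, log2 fold change -3.17 ± 0.198, FDR = 4.39e-15), Morc1, a silencer of transposons (79.2 ± 13 CPM v 255 ± 16.4 CPM, log2 fold change -1.63 ± 0.121, FDR = 2.18e-09), Dnmt3a (228 ± 13.4 CPM v 536 ± 26.8 CPM, log2 fold change -1.21 ± 0.0867, FDR = 1.98e-07) and the histone demethylase gene Kdm1b (62.6 ± 13.8 CPM v 151 ± 22.1 CPM, log2 fold change -1.19 ± 0.121, FDR = 1.50e-04). Of 16 tested genes of imprint erasure and maintenance, 2 rose and 6 fell in XY from 24 h to 72 h, and 2 rose and 4 fell in XX (medians -0.649 and -0.128, beside -0.102 over all genes in XX). Of all genes, 27.3% were called in XY and 22.2% in XX. Tet1, which oxidises methylated cytosine, fell in both (80.2 ± 23.2 CPM v 540.5 ± 99.3 CPM, log2 fold change -2.83 ± 0.161, FDR = 4.97e-17 in XY, 27.7 ± 4.51 CPM v 248 ± 65 CPM, log2 fold change -3.23 ± 0.242, FDR = 2.54e-13 in XX). Uhrf1, which recruits the maintenance methyltransferase, was the only gene of these 16 called with MEKi at 72 h, and it was higher (197 ± 23.6 CPM v 70.7 ± 13.5 CPM, log2 fold change 1.44 ± 0.134, FDR = 2.19e-06).

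Of 38 further imprinted genes listed, 37 were in the table and 24 were tested. In XY v XX at 72 h, 8 were higher and 2 lower (median 0.924, beside 0.0996 over all genes). The share called, 41.7%, was close to the 41.0% of all genes. Slc38a4, an amino acid transporter (46.5 ± 8.94 CPM v 3.87 ± 1.25 CPM, log2 fold change 3.45 ± 0.45, FDR = 2.12e-07), and Sfmbt2, a Polycomb-related gene (51.1 ± 9.97 CPM v 7.1 ± 1.67 CPM, log2 fold change 2.77 ± 0.313, FDR = 2.62e-08), were among the higher. Slc22a18, a transporter gene next to Phlda2, was lower in XY at 0 h (2.14 ± 0.987 CPM v 28.1 ± 2.78 CPM, log2 fold change -3.85 ± 0.359, FDR = 5.56e-10) and at 24 h (0.752 ± 0.587 CPM v 10.4 ± 1.73 CPM, log2 fold change -3.39 ± 0.499, FDR = 1.90e-05), and higher in XY at 72 h (10.5 ± 3.83 CPM v 2.41 ± 0.757 CPM, log2 fold change 2.04 ± 0.426, FDR = 0.00211). In XX from 24 h to 72 h, 3 rose and 9 fell (50% called, beside 22.2% of all genes, and a median of -0.601, beside -0.102). Dcn, which rose (9.26 ± 5.29 CPM v 1.53 ± 1.04 CPM, log2 fold change 2.68 ± 0.743, FDR = 0.0185), is also on the somatic marker list. Of the 16 somatic markers tested, 8 were called higher over this interval. The part of somatic RNA in these changes was not tested. With MEKi at 72 h, limma treat called 0 of the 24 against DMSO, where 9.12% of all genes were called. Of the 24, 1 had an unadjusted p under 0.05, edgeR and DESeq2 called 0, and an observed fold over 1.5 with limma eBayes called 7. At 72 h, Ano1, a chloride channel gene, and Slc22a18 were lower in MEKi than in FGFRi, 8.33% of the 24 beside 12.7% of all genes, and DESeq2 called neither (4.84 ± 1.14 CPM v 12.6 ± 2.22 CPM, log2 fold change -1.31 ± 0.246, FDR = 0.0218 and 5.32 ± 1.24 CPM v 12.7 ± 2.37 CPM, log2 fold change -1.18 ± 0.231, FDR = 0.0485).

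The 7 tested members that were called in none of the 17 comparisons are described by the means of the 10 groups. Inpp5f, a phosphoinositide phosphatase gene, ran from 76.3 to 106 CPM and Blcap, the neighbour within which Nnat lies, from 15.8 to 27.5 CPM. Commd1, a copper metabolism gene that hosts Zrsr1, ran from 56.7 to 115 CPM, Mcts2, a retrogene, from 12.6 to 25.4 CPM and Tssc4, in the Kcnq1 domain, from 39 to 62.6 CPM. The levels do not rank the genes. Igf2r, the receptor that clears the growth factor Igf2, was at 204 ± 30.8 CPM in XX and 109 ± 10.7 CPM in XY at 72 h (-0.868 ± 0.138, FDR = 0.0549), and in XY at 72 h it was at 110.0 ± 10.1 CPM in FGFRi and 111 ± 5.54 CPM in MEKi. Zim1, a zinc finger gene beside Peg3, had no group mean above 4.64 CPM, which limits what could be detected for it. Nnat and Blcap, Igf2r and Airn, and Rian and Rtl1 overlap on opposite strands. The authors counted by strand, and the overlapping partners Airn and Rtl1 were near 0.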

How the data were processed

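The authors deposited UMI-collapsed counts per gene, 1 column per library and not normalised. Per the study's methods, poly(A)-primed libraries were demultiplexed with scPipe, aligned with Rsubread to GRCm39 and counted over exons by strand, with versions not given in the sources used here. Total counts were 1178953 to 5199153 per library.

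Counts were analysed in R 4.3.3 with limma 3.58.1. Genes kept by filterByExpr (minimum count 10, minimum total 15) were scaled by TMM and fitted with voomWithQualityWeights, with 1 mean per group over all 40 libraries. Each of 17 comparisons was tested with limma treat against a fold change of 1.5 at FDR under 0.05 (Benjamini-Hochberg over all genes tested). Groups and replicate numbers came from the library names in the labels. The fits were tested on simulated data. Alternatives were edgeR 4.0.16 glmTreat, DESeq2 1.42.0, limma eBayes with an observed fold over 1.5, RLE scaling, no filter, no sample weights, a replicate block, only the groups compared, each library left out, and subtraction of counts at 4.2% from the library of the other pool with the same sample index (32 libraries have such a partner). After the data were seen, the XY time difference was also taken between the FGFRi groups, which were in 1 pool. That rate came from 88 Y-linked counts in 4 XX libraries and 2097 in their XY partners.

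Members and gene lists were chosen with earlier results of these data known. All 38 members could be named. From other lists, up to 5 called genes with the largest change per comparison could be named. Start regions were read from the GRCm39 genome with the canonical transcripts of its annotation, and 1 start region is not reported here.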

Additional observations from a re-analysis of the deposited data

Results flagged for a closer look

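Of the 155 sets of 4 libraries examined (a member in a group that entered a comparison in which it was called), 8 held a library far from the other 3, and chance alone gives about 1 in 20. XY 0 h replicate 5 was far above its group for Rian (14.26 CPM, the others 4.387 to 5.188), Nnat (13.37, the others 6.27 to 7.459) and Grb10 (14.26, the others 5.966 to 6.27). It was also the XY 0 h library with the most somatic and blood marker RNA, and the part of that RNA in these values was not tested. XY 24 h DMSO replicate 3 stood apart for Mirg (2.605 CPM, the others 0.5185 to 0.6877) and Nnat (16.15, the others 5.185 to 6.222). XY 72 h DMSO replicate 2 was far above the others for Rian (42.07 CPM against 20.9 to 22.63), and replicate 5 of the same group was low for Ascl2 (3.994 against 7.942 to 8.056). Ppp1r9a was at 44.16 CPM in XX 72 h DMSO replicate 7 and at 32.35 to 34.07 CPM in the others.

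The difference between XY and XX changed from 24 h to 72 h, by the interaction term of limma treat, for 14 genes. The log2 values were 5.58 for Phlda2, 4.1 for Mirg, 3.68 for Plagl1, 3.47 for Rian, 2.83 for Meg3, 2.79 for Peg10, 2.64 for Grb10, 2.61 for Zrsr1, 1.94 for Asb4 and 1.62 for H19. They were -2.23 for Mest, -1.57 for Snrpn, -1.46 for Kcnq1ot1 and -1.25 for Cd81. The difference between MEKi and DMSO changed from 24 h to 72 h for 4 genes, with 1.23 for Cdkn1c, 1.49 for Kcnq1ot1, 1.65 for Snrpn and -3.22 for Sgce.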

How the results depend on the processing

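No member called in a comparison changed direction under any alternative, and 63 of the 126 calls held under every alternative that tested the gene. With only the groups compared in the fit, 116 calls were kept and 3 lost, and the rest of the 126 had no value there. The median log2 fold change of all genes shifted by at most 0.116 with RLE scaling, 0.109 with DESeq2, 0.11 with only the groups compared and 0.59 without the filter, where genes with very few counts enter, and by under 0.1 with the others. Calls over the 17 comparisons numbered 124 with RLE scaling, 138 with edgeR, 102 with DESeq2, 208 with an observed fold over 1.5 by limma eBayes, 93 without the filter, 118 without sample weights, 128 with shared index counts subtracted and 120 with only the groups compared. Low counts limited the 5 members under the filter.

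With an observed fold over 1.5, members called were 7 in XY v XX at 0 h, 11 at 24 h, 6 in XY 24 h v 0 h, 8 in XX 24 h v 0 h, 12 in XX 72 h v 24 h, 2 with each inhibitor at 24 h, 2 with FGFRi at 72 h, 17 with MEKi at 72 h, 15 in MEKi XY v XX and 9 in the MEKi by time interaction. edgeR called 1 in XY 24 h v 0 h. Without the filter 1 was called in XX 24 h v 0 h, 11 in XY 72 h v 24 h, 5 with MEKi at 72 h and 1 in the MEKi by time interaction. DESeq2 called 7 with MEKi at 72 h and 0 in that interaction, RLE scaling 2 and voom without sample weights 1 there. The cause was not tested.

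Same-numbered libraries did not deviate together. In 0 of the 8 comparisons with 3 or more shared numbers was every correlation of their deviations over 0.1, and 11 of 50 libraries correlated best with their own number, so the numbers were not read as pairs. With the replicate block, 82 calls were made, with 0 in XX 24 h v 0 h, 1 in XX 72 h v 24 h, 7 in XX 72 h v 0 h, 6 in MEKi v DMSO and 6 in MEKi v FGFRi at 72 h, 1 in MEKi XY v XX, 9 in the sex by time and 2 in the MEKi by time interaction. In XY v XX at 72 h the block lost Peg10 (FDR = 0.0921), Sgce (FDR = 0.493), Asb4 (FDR = 0.085), Mirg (FDR = 0.67), Nap1l5 (FDR = 0.247) and Grb10 (FDR = 0.276). In MEKi v DMSO at 72 h it lost Phlda2 (FDR = 0.199), Peg10 (FDR = 0.528), Meg3 (FDR = 0.136), Rian (FDR = 0.382) and Mirg (FDR = 0.41).

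Leaving out single libraries gave 1 to 2 calls in XX 24 h v 0 h, 6 to 11 for MEKi v DMSO at 72 h, 3 to 6 in MEKi XY v XX and 0 to 4 in the MEKi by time interaction.

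In XY 72 h v 24 h, the comparison within pool 2 in FGFRi, added after the data were seen, called 15 members against 17 in DMSO.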
